A study of Triticum aestivum with 12 samples.

Results

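Roots of the wheat line Pavon-TL were compared with roots of the line called Null Control on 8 of the 12 arrays of the series, 4 per genotype. The arrays were chosen by their titles and matched by water condition and replicate number. Each genotype had 2 arrays under well water and 2 under water stress. Tissue was taken from 18-day-old seedlings raised in sand, and stressed plants were watered every second day while well-watered plants were watered daily. RNA of every group was extracted and labelled in the same way, with 1 biotin-labelled sample per Affymetrix wheat array. Pavon76, the cultivar, makes up the other 4 arrays and enters here only through the estimate of the spread and as values set beside the others.

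Going by knowledge of the study beyond its labels, Pavon-TL is Pavon76 carrying a chromosome segment of the wild wheatgrass Agropyron elongatum, translocated onto the long arm of chromosome 7D. The labels do not say how Null Control was made, whether it is 1 line or several, or how many plants went into a sample. The comparison asks which root transcripts set the translocation line apart from this control.

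Bread wheat is a hexaploid with the A, B and D genomes, so most genes exist as closely related homoeologous copies. In a translocation line a wheat chromosome arm or part of it is replaced by the corresponding segment of a relative, and the wheat copies there are exchanged for the relative's own versions. Arrays such as this one carry probe sets designed on wheat sequence: groups of short probes whose signals are combined into 1 value. The ending of a probe set's name tells whether its probes are expected to be specific (_at), to match several transcripts of one gene (_a_at), to match several genes equally (_s_at) or to cross-hybridise (_x_at). A lower value can come from less transcript or from a transcript whose sequence the probes match less well, and these values cannot tell the difference. Where one genotype lies near the bottom of the scale, a loss or gain is a size on the scale of these values only. In whole roots, fewer cells of a type and less RNA per cell cannot be told apart either.

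Values are RMA values on the log2 scale, where a difference of 1 is 2-fold. They spanned 2.32 to 14.84, with a median of 5.91 and a first quartile of 4.34, and the medians of the 8 arrays lay between 5.91 and 5.92. Matched Pavon-TL and Null Control arrays correlated across probe sets at 0.993 to 0.994, against 0.980 to 0.984 for the 2 arrays of a group, so arrays of different genotypes with the same water condition and number were more alike than the 2 arrays of a group. The labels do not say what a replicate number marks, nor whether 2 arrays of one group stem from different plants, so the p-values measure the spread between these arrays, which may be technical. The root label could be checked only against other tissues. Over the leaf photosynthesis list the median level per array was 3.85 to 3.999 for Pavon-TL and 3.71 to 3.89 for Null Control, below the first quartile of all values, with 22 of its 33 probe sets below it. Its brightest gene, the Rubisco large subunit rbcl, stood at 11.93 ± 0.25 (SD, n = 4) and 11.89 ± 0.36 (SD, n = 4). For the grain storage and starch list the median level per array was 4.21 to 4.36 and 4.28 to 4.57. Of its 28 probe sets, 15 lay below the first quartile, and some of its genes were bright. The brightest included avnlb (LOC100125692), at 11.40 ± 0.27 (SD, n = 4) for Pavon-TL and 11.41 ± 0.22 (SD, n = 4) for Null Control. GLU1A (LOC780595) stood at 10.89 ± 0.35 (SD, n = 4) and 11.06 ± 0.66 (SD, n = 4). Members entered the list by their symbols alone. GLU1A, placed on chromosome 2B, was not checked for a role in grain storage.

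Most of the probe sets called between Pavon-TL and Null Control roots had less signal in Pavon-TL, and the largest differences were losses of signal. Averaged over both water conditions, 93 of 61179 probe sets passed the test (0.152%), with 80 lower in Pavon-TL (0.131%) and 13 higher (0.0212%). The lower calls had a median difference of -2.53 and the higher calls one of 1.02, against -0.00 over all probe sets tested. A size of at least 16-fold was reached by 23 lower and 2 higher calls, and by no uncalled probe set (25 of all, 0.0409%). At least 2-fold was reached by 191 probe sets (0.312%), 100 higher and 91 lower in Pavon-TL, and 81 of the 191 were called. At an unadjusted p under 0.05 there were 1902 (3.11%). Calls are limma adjusted p-values (Benjamini-Hochberg) below 0.05. The model includes no term for the replicate number. With the number as a block the calls rose to 352, of which 45.2% were lower in place of 86.0%, as described further on.

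The lower calls had ordinary to strong signal in Null Control and weak signal in Pavon-TL. Their median level was 8.17 in Null Control and 5.19 in Pavon-TL. In Null Control only 7 of the 80 had a mean below the median of all values, and 0 below the first quartile, while in Pavon-TL 56 lay below the median and 21 below the first quartile. A Pavon-TL mean of at least 10 was kept by 4 of them, against 22 in Null Control. The 4 Pavon-TL arrays lay wholly below the 4 Null Control arrays in 79 of the 80 lower calls and wholly above them in 13 of the 13 higher calls. Over all probe sets tested, such a separation occurred in 1505 (2.46%), 1.05% downward and 1.41% upward. Calls were selected on these same arrays, which favours separated groups, so the separation is a description and no further support for them.

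**Figure D1:**
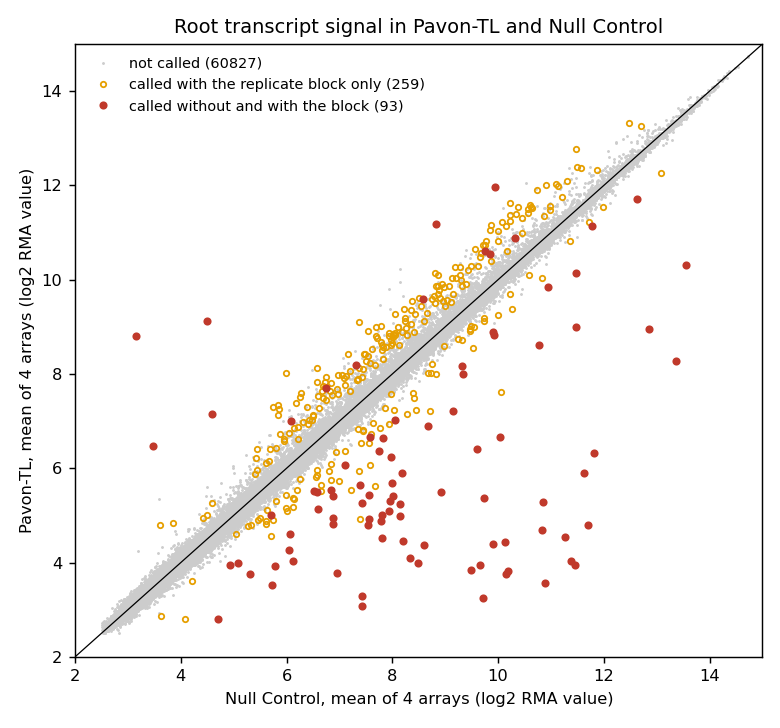
Mean log2 RMA value of each probe set over the 4 Null Control arrays (x axis) and the 4 Pavon-TL arrays (y axis). Grey points are 60827 uncalled probe sets, open orange circles the 259 called with the replicate number as a block only, and filled red circles the 93 called without and with it; the line marks equal values. Most red points lie far below the line, at ordinary to high Null Control levels, while most orange points lie close above it.

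Gene annotation reached few of these calls: 3 of the 93 had a gene, all lower in Pavon-TL, out of 1273 annotated probe sets (0.236% of them called, against 0.152% of all tested). The first is LOC780661, for which the annotation gives no further name. Its probe set Ta.6293.1.A1_at read 4.54 and 5.29 in well-watered Pavon-TL roots and 4.43 and 4.50 in stressed ones. In Null Control it read 10.91 and 10.79, and 10.88 and 10.72. Pavon-TL values thus lay about 6 units below Null Control values in every pair, and 1 Pavon-TL array stood above the other 3. The difference was -6.14 ± 0.15 (SE, limma adjusted p = 9.10e-07), and Pavon76 averaged 10.82, close to Null Control. LOC780661 has 5 further probe sets on the array, and these differed by -0.16 to 0.13 with 0 of 5 called. One of them, Ta.25111.1.S1_x_at, had a mean of 10.06 ± 0.45 (SD, n = 4) for Pavon-TL and 10.004 ± 0.32 (SD, n = 4) for Null Control.

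LOC543418, also without a further name, showed the same contrast between its probe sets. Ta.10508.2.S1_a_at read 3.69, 3.18, 3.60 and 3.81 in Pavon-TL, against 10.49, 11.20, 10.55 and 11.29 for Null Control, in the order well water 1 and 2, then water stress 1 and 2. Null Control arrays with the number 2 were higher than those with the number 1, Pavon-TL arrays were all near the bottom of the scale, and the groups did not overlap. The difference was -7.31 ± 0.26 (SE, limma adjusted p = 6.98e-06), with Pavon76 at 10.87. The gene's other probe set, Ta.24991.1.S1_x_at, had a mean of 13.77 ± 0.31 (SD, n = 4) for Pavon-TL and 13.85 ± 0.21 (SD, n = 4) in Null Control, a difference of -0.07.

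The remaining annotated call is the histone H2B gene wcH2B-8 (LOC543184), whose protein packs DNA into nucleosomes. Ta.7378.35.S1_x_at read 11.96, 11.67, 11.78 and 11.48 in Pavon-TL, against 12.58, 12.91, 12.61 and 12.44 for Null Control. Every Pavon-TL array was below every Null Control array, but both groups were bright. It fell by 0.91 ± 0.12 (SE, limma adjusted p = 0.0262). That call was lost when the spread was estimated from the 8 arrays alone (adjusted p = 0.196) and in 7 of the 8 fits that left out 1 array, where it ranged from 0.0505 to 0.136. The other 6 probe sets of wcH2B-8 differed by -0.19 to -0.02, with 0 of 6 called. Their transcript cluster, the group of sequences that share the number after Ta. in their names, has 38 probe sets, of which 1 more was called. This unannotated probe set, Ta.7378.25.S1_at, had the larger change, with means of 6.32 for Pavon-TL and 11.81 for Null Control. Its difference was -5.49 (limma adjusted p = 1.31e-06), and it was called under both water conditions. The 36 uncalled probe sets of the cluster differed by -0.21 to 0.04.

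**Figure D2:**
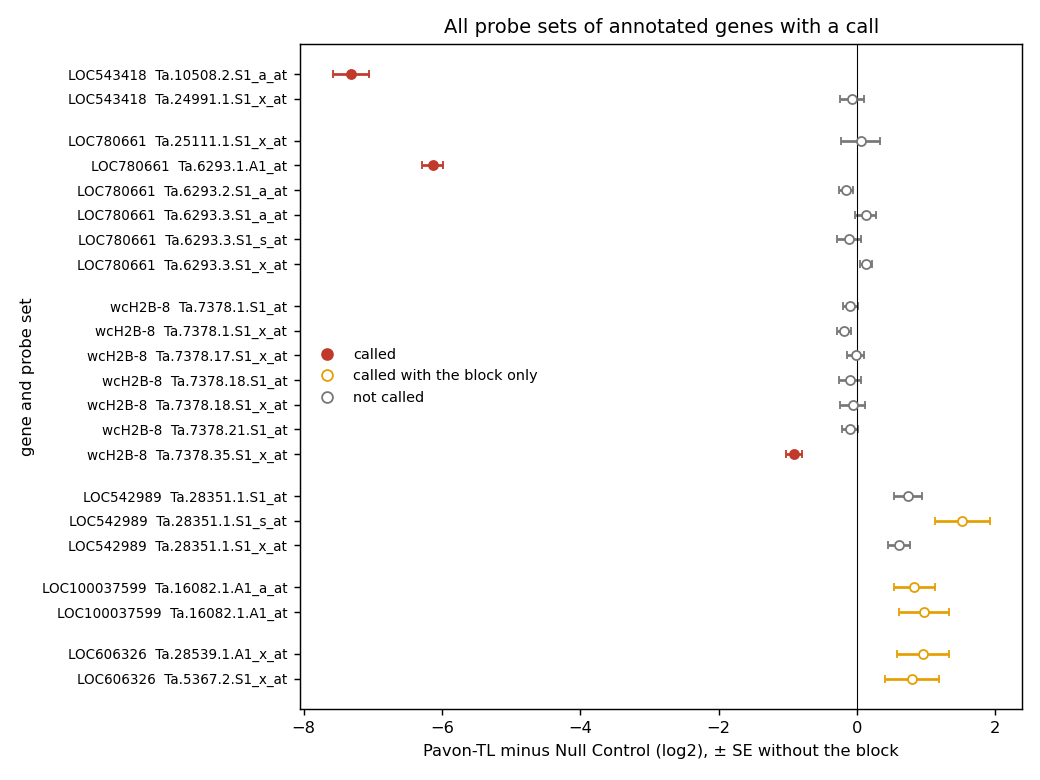
Difference between Pavon-TL and Null Control (x axis, log2, ± SE of the model without the block) for every probe set of 6 annotated genes (y axis). Filled red circles were called, open orange circles were called with the block only and grey circles were not called. In LOC543418, LOC780661 and wcH2B-8 a single probe set is displaced and the others lie near 0, while the probe sets of LOC542989, LOC100037599 and LOC606326 lie together on the positive side.

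The largest losses among probe sets without a gene had the same form. They were taken by size among called probe sets whose arrays did not overlap. For Ta.25043.1.S1_at the values were 4.20, 3.67, 3.87 and 4.07 in Pavon-TL, against 11.78, 11.77, 11.43 and 10.86 for Null Control, a difference of -7.51 ± 0.18 (SE, limma adjusted p = 9.10e-07). Ta.16236.1.S1_at read 4.42, 4.59, 4.45 and 4.71 against 11.36, 11.10, 10.93 and 11.70, a difference of -6.73 ± 0.16 (SE). These are near on-off contrasts, with all Pavon-TL values in the lower part of the scale and all Null Control values in the upper part.

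TaAffx.128836.1.S1_at had a mean of 3.24 ± 0.35 (SD, n = 4) for Pavon-TL and 9.71 ± 0.21 (SD, n = 4) for Null Control, and the other probe set of its cluster, TaAffx.128836.1.S1_x_at, was also called at -5.72 ± 0.25 (SE). TaAffx.79196.1.S1_at differed by -7.34 ± 0.36 (SE) and Ta.18949.1.S1_at by -6.91 ± 0.31 (SE). In both of these, the second Null Control well-watered array was the highest of its genotype, at 12.26 and 12.45. Ta.28235.1.A1_s_at differed by -5.72 ± 0.35 (SE): its Pavon-TL values were held between 5.82 and 5.99, while its Null Control values went from 10.98 to 12.18. The limma adjusted p-values of these 4 ranged from 1.31e-06 to 1.92e-04. Pavon76 means of these 6 probe sets lay between 9.69 and 12.06.

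The probe sets of cluster Ta.994 differed in level as well as in change. Ta.994.1.S1_at and Ta.994.1.S1_x_at had differences of -6.39 ± 0.31 (SE) and -6.38 ± 0.32 (SE). By their names both were designed on the same sequence, so they are not independent. Ta.994.3.S1_x_at had a difference of -1.28 ± 0.21 (SE) and passed only with the replicate block (limma adjusted p = 0.0132 with it and 0.126 without), and Ta.994.3.S1_at, at -0.34 ± 0.12 (SE), did not pass with either. Both of these were dim in Null Control, with means of 4.08 and 4.02, which leaves little room for a lower value.

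In the model without the block, gains were fewer than losses (13 against 80), while with the block there were 193 gains and 159 losses. The 2 largest gains passed in both models. TaAffx.56180.1.S1_at read 8.74, 8.93, 8.52 and 9.06 in Pavon-TL, against 3.25, 3.15, 3.21 and 3.04 for Null Control. It had a difference of 5.65 ± 0.17 (SE, limma adjusted p = 1.31e-06), and Pavon76 averaged 3.24. Ta.11279.1.A1_at read 8.78, 9.23, 9.005 and 9.48 against 4.54, 4.73, 4.34 and 4.36, a rise of 4.63 ± 0.13 (SE, limma adjusted p = 1.31e-06). Both were thus weak in each Null Control array and moderately strong in each Pavon-TL array, and the first was near the bottom of the scale in Null Control.

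Smaller rises among the higher calls included TaAffx.83910.1.S1_at at 3.004 ± 0.19 (SE), Ta.10800.1.A1_at at 2.54 ± 0.19 (SE) and Ta.4978.2.A1_a_at at 2.37 ± 0.10 (SE). Ta.4978.2.A1_a_at was already bright in Null Control, at 8.82 ± 0.12 (SD, n = 4), and rose to 11.19 ± 0.16 (SD, n = 4). Ta.14590.3.S1_at rose by 2.02 ± 0.18 (SE) from a Null Control mean of 9.94. The 4 other probe sets of its cluster differed by -0.15 to 0.47 and were not called. TaAffx.85427.2.S1_at and Ta.28667.1.S1_at rose by 1.02 ± 0.14 (SE) and 0.96 ± 0.13 (SE), each with limma adjusted p = 0.0362. Both calls were lost with the 8 arrays alone (adjusted p = 0.254 and 0.217) and in 7 of the 8 fits that left out 1 array. The 2 other probe sets in the cluster of TaAffx.85427.2.S1_at also rose, by 0.48 and 1.01, and were not called without the block.

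**Figure D3:**
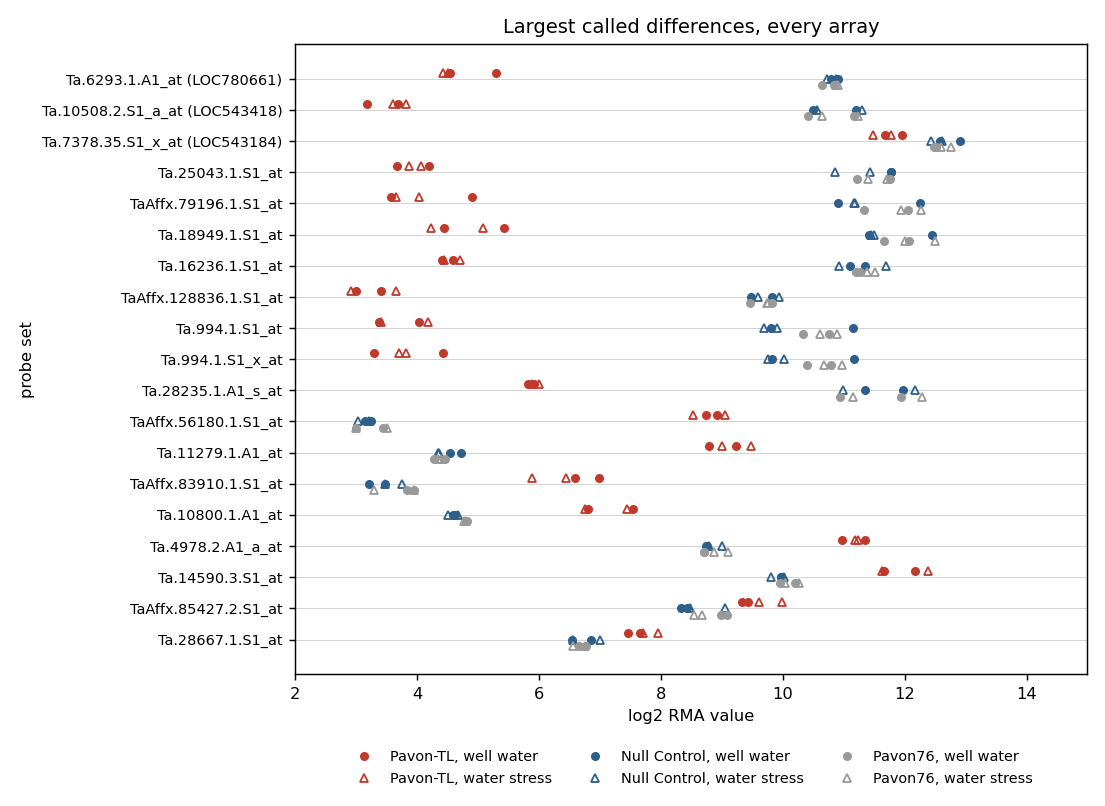
Log2 RMA value (x axis) in every array for the 3 annotated calls and for calls without a gene (y axis). The latter are the 8 largest non-overlapping differences in each direction, so some losses larger than the gains shown are left out. Red, blue and grey mark Pavon-TL, Null Control and Pavon76, filled circles well water and open triangles water stress. In every probe set shown the Pavon-TL values stand apart from the Null Control values, and the 11 lower ones come first.

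A call in one probe set of a cluster was often not shared by the others. The 93 calls fell in 84 transcript clusters, of which 54 had a single probe set (64.3%, against 80.7% of all 45705 clusters). Of the 30 clusters with several probe sets, 21 had 1 called and 9 had more than 1, never in opposite directions, and in 4 every probe set was called. In most of the 9 the calls were an _at and an _x_at probe set designed, by their names, on the same sequence. Their shared direction is thus no further support. The 89 uncalled probe sets of these clusters had a median difference of -0.02, but 36 of them belonged to the wcH2B-8 cluster Ta.7378 alone. Of the 89, 2 reached 2-fold, in Ta.994 (-1.28) and TaAffx.85427 (1.01), each in the direction of the calls of its cluster. Some others also moved with the call, as in Ta.10236 (0.55 to 0.58 beside a call of 0.68). Elsewhere they did not, as in Ta.3661 (0.14 beside a call of -4.50). Probe sets whose names start with TaAffx made up 37.5% of the lower calls and 48.5% of all tested. The _x_at type made up 11.2% of the lower calls and 11.1% of all tested.

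The genotype difference was also tested within each water condition, since both conditions use separate arrays. Under well water 56 probe sets passed (0.0915%), 49 lower (0.0801%) and 7 higher (0.0114%), and 1464 (2.39%) had an unadjusted p under 0.05. Under water stress 60 passed (0.0981%), 53 lower (0.0866%) and 7 higher (0.0114%), and 1645 (2.69%) had an unadjusted p under 0.05. With the replicate number as a block, well water gave 107 calls (0.175%, with 15 higher, 0.0245%, and 92 lower, 0.150%), and 3690 (6.03%) at an unadjusted p under 0.05. Water stress gave 137 (0.224%, with 39 higher, 0.0637%, and 98 lower, 0.160%), and 3999 (6.54%) at that level. Without the block, the 49 lower in Pavon-TL under well water had a median of -3.83 there and of -3.88 under water stress, where 49 of 49 kept the sign and 46 were called. The 7 higher ones had medians of 2.57 and 2.52, and 7 of 7 were called under water stress. In total 53 probe sets were called under both conditions, 63 under at least one, and all 63 of these were also called in the average. Both fits share 1 estimate of the spread. Across all 61179 probe sets the differences correlated at 0.511 between the water conditions, and at 0.256 across the 61086 uncalled ones. Probe sets are not independent replicates.

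The 3 largest called differences in each direction were in the same probe sets under both water conditions. With well water given first, Ta.25043.1.S1_at differed by -7.84 and -7.18. LOC543418 differed by -7.41 and -7.22, and TaAffx.79196.1.S1_at by -7.35 and -7.34. Of the gains, TaAffx.56180.1.S1_at differed by 5.64 and 5.67, Ta.11279.1.A1_at by 4.38 and 4.89, and TaAffx.83910.1.S1_at by 3.45 and 2.56.

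**Figure D4:**
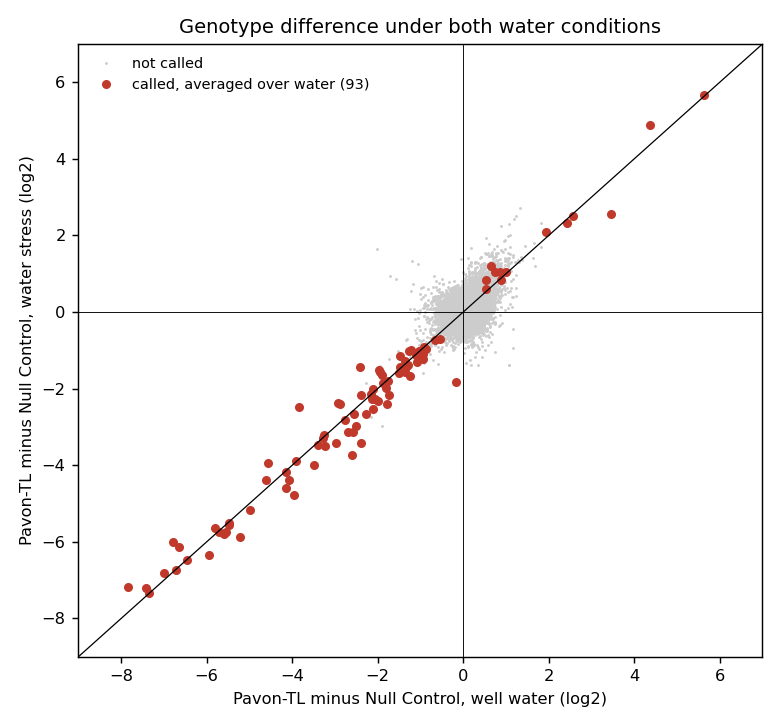
Pavon-TL minus Null Control under well water (x axis) and under water stress (y axis), both log2, for each probe set. Red circles are the 93 called in the average over water and grey points the others; the diagonal marks equal differences. The red circles span -7.84 to 5.64 on the x axis and most lie close to the diagonal; 4 lie at least 1 unit from it, among them 1 at -0.17 on the x axis and -1.82 on the y axis.

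The test of whether the difference changed with water found 0 probe sets in limma, with 1078 (1.76%) at an unadjusted p under 0.05. With the replicate block it found 0 as well, with 2595 (4.24%) at that level. Among the 93 calls the change ran from -1.65 to 1.35, and it reached 2-fold in 4. The smallest unadjusted p belonged to TaAffx.28669.1.A1_at, a probe set without a gene. Its Null Control values were 5.45 and 5.55 with well water and 7.53 and 7.55 with water stress, and its Pavon-TL values 5.05 and 5.61, then 5.79 and 5.65. The genotypes overlapped under well water and were apart under water stress. Its difference was -0.17 and then -1.82, a change of -1.65 ± 0.28 (SE, limma adjusted p = 1.00, and 0.954 with the block). Pavon76 had means of 5.82 and 6.77 in the same order. This probe set was the 1 call of the averaged comparison whose arrays overlapped.

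Ta.6253.1.S1_at, the next by p, read 6.73 and 6.87 under well water and 7.72 and 7.53 under water stress in Pavon-TL, against 9.12, 9.31, 9.04 and 9.09 in Null Control. Its difference thus went from -2.41 to -1.44, with both values called, and the change of 0.97 ± 0.19 (SE) did not pass (limma adjusted p = 1.00).

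Treating the replicate number as a block takes the difference between the numbers out of the spread. With it 352 probe sets were called (0.575%), 193 higher (0.315%) and 159 lower (0.260%), and 4318 (7.06%) had an unadjusted p under 0.05. All 93 earlier calls were among them. The 259 added calls were mostly small and mostly higher: 180 higher, with a median difference of 0.83, and 79 lower, with a median of -0.74, and 63 of the 259 reached 2-fold. In the added calls the arrays with number 1 and those with number 2 differed by a median of 0.60 in size, against 0.13 over all probe sets. In the 4 matched pairs the 180 added higher calls had medians of 0.62, 0.79, 0.96 and 0.81.

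How many of the added calls were made depended on single arrays. With the block, leaving out the second Pavon-TL well-watered array gave 163 calls, 51 higher and 112 lower. Leaving out the second stressed array of that genotype gave 612, 428 higher and 184 lower. Without the block the 8 such fits gave 70 to 90 calls. Lower calls outnumbered higher ones in each of these 8 and in 6 of the 8 with the block.

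Annotated genes among the added calls numbered 7 probe sets of 5 genes. All 7 were higher in Pavon-TL, as were 180 of all 259 added calls. With the earlier ones this makes 10 of the 1273 annotated probe sets (0.786%), against 0.575% of all probe sets tested. None of the 5 genes has a further name in the annotation. For LOC542989 the probe set Ta.28351.1.S1_s_at read 7.99, 6.96, 8.19 and 6.26 in Pavon-TL, against 5.97, 5.70, 5.86 and 5.79 for Null Control. Pavon-TL arrays with number 1 were higher than those with number 2, Null Control arrays were nearly level, and the groups did not overlap. Its difference was 1.52 ± 0.25 (SE with the block, limma adjusted p = 0.0270, and 0.969 without the block). The gene's 2 other probe sets had differences of 0.73 and 0.60, also without overlap of the arrays, and did not pass (adjusted p = 0.0606 and 0.0961 with the block).

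LOC606326 was measured by 2 probe sets that passed with the block. Ta.28539.1.A1_x_at read 8.85, 7.84, 9.08 and 7.92 in Pavon-TL, against 7.76, 7.14, 7.94 and 7.05 for Null Control. The groups overlapped when the numbers were ignored, while the 4 matched differences were 1.08, 0.70, 1.14 and 0.87. Its mean difference was 0.95 ± 0.11 (SE with the block, limma adjusted p = 0.00286), and Ta.5367.2.S1_x_at differed by 0.80 ± 0.12 (SE with the block, limma adjusted p = 0.0175). LOC100037599 also had 2 such probe sets, at 0.97 ± 0.17 and 0.83 ± 0.15 (SE with the block). Its Pavon76 means over both water conditions, 10.22 and 9.58, lay between those of Pavon-TL, 10.73 and 10.03, and those of Null Control, 9.76 and 9.20. Under well water alone Pavon76, at 10.725 and 9.979, was level with Pavon-TL, at 10.627 and 9.937. Under water stress Pavon76, at 9.718 and 9.190, was close to Null Control, at 9.650 and 9.187. LOC100049023 differed by 0.94 ± 0.14 and LOC100037518 by 0.71 ± 0.12 (SE with the block). For these genes too, Pavon76 was not below Pavon-TL under well water (7.54 against 7.38 and 8.97 against 8.91). Under water stress it was below (6.75 against 7.68 and 7.81 against 9.03). The matched differences of LOC100037518 varied more, from 0.08 to 1.18. When each of the 8 arrays was left out in turn and the block was kept, Ta.28539.1.A1_x_at of LOC606326 passed in 8 of 8 fits. The other 6 probe sets lost the call in most of them: LOC542989 and LOC100049023 passed in 3 fits each and LOC100037518 in 2. Ta.5367.2.S1_x_at and both probe sets of LOC100037599 passed in 1 each. The highest limma adjusted p of these 6 in such a fit was 0.0785 to 0.225.

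Genes with known roles in stress, growth and metabolism were described through 16 lists of gene symbols, which held 143 annotated probe sets of 65 genes. The difference was positive in 72 and negative in 71, with a median of 0.00; over all probe sets tested it was positive in 29666 and negative in 31513. The test passed in 1 of 143, the wcH2B-8 probe set above, with or without the block, against 0.152% and 0.575% of all probe sets. An unadjusted p under 0.05 was reached by 3, against 3.11% of all probe sets. The list of kinases, phosphatases and signalling had no annotated member.

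The dehydrins and LEA proteins, which accumulate in drying tissue, counted 10 probe sets, 4 positive and 6 negative, with a median difference of -0.02 and 0 called. Rab15 (LOC543293), a dehydrin responsive to abscisic acid, stood at 8.45 ± 0.23 (SD, n = 4) for Pavon-TL and 8.48 ± 0.23 (SD, n = 4) in Null Control. For the LEA genes Em (LOC543480) and EM (LOC543497) the differences were 0.04 ± 0.11 (SE) and 0.07 ± 0.07 (SE). A further LEA gene, LOC543476, differed by 0.23 ± 0.29 (SE). The histone and HMG list held 20 probe sets of 6 genes, 3 positive and 17 negative, with a median of -0.07. Of the 17, 7 were probe sets of wcH2B-8 in one cluster, so they are not independent. Besides wcH2B-8 it held wcH2B-6 (LOC543183) at -0.10 ± 0.21 (SE), the DNA-bending protein Hmgb3 (LOC543333) at 0.02 ± 0.25 (SE) and H2A-9 (LOC732714) at -0.01 ± 0.08 (SE), and the sign of these 3 changed under some alternatives. Among the tubulins 6 probe sets were positive and 4 negative, with a median of 0.01. The bright tubb1 (LOC543257) averaged 13.91 ± 0.11 (SD, n = 4) and 13.86 ± 0.11 (SD, n = 4).

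For oxidative stress and detoxification enzymes 5 of 12 probe sets were positive and 7 negative, and the median was -0.03. The peroxiredoxin Prx1 (LOC606328), which reduces peroxides, stood at 5.58 ± 0.07 (SD, n = 4) for Pavon-TL and 5.34 ± 0.05 (SD, n = 4) in Null Control. The arrays did not overlap, yet the difference of 0.23 ± 0.09 (SE) did not pass (limma adjusted p = 1.00, and 0.579 with the block). Catalase CAT1 (LOC543190) differed by 0.15 ± 0.09 (SE) and the glutathione transferase GSTZ1 (LOC543412) by -0.07 ± 0.24 (SE). The glyoxalase lgul (LOC542984), which detoxifies methylglyoxal, had means of 3.77 for Pavon-TL, 3.88 for Null Control and 5.41 for Pavon76.

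Enzymes of fructan and sucrose metabolism were split 3 to 2 between positive and negative, and 1-FEH (LOC543441), a fructan-degrading exohydrolase, was at -0.11 ± 0.11 (SE). The defence list had 3 positive and 1 negative, with PR5 (LOC543292), a thaumatin-like protein, at 0.07 ± 0.19 (SE) and wci (LOC542996) at -0.08 ± 0.09 (SE). All 5 probe sets of the phenylpropanoid, methyltransferase and phytosiderophore list were positive, none above 0.09. DMAS1 (LOC100037594), which makes the iron-chelating deoxymugineic acid in grass roots, had a wide spread: 10.69 ± 1.11 (SD, n = 4) for Pavon-TL and 10.61 ± 1.54 (SD, n = 4) in Null Control. The root malate channel ALMT1-1 (LOC543388) differed by 0.01 ± 0.38 (SE), and the plasma membrane proton pump ha1 (LOC543149) by 0.02 ± 0.07 (SE).

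The wall-loosening enzyme XTH (LOC543464) differed by -0.18 ± 0.38 (SE). Of translation genes, RPS29 (LOC606342) differed by 0.82 ± 0.61 (SE) and the cap-binding factor eIF-4E-1 (LOC543485) by 0.01 ± 0.08 (SE). For LTP3 (LOC543095), a lipid transfer protein, the difference was 0.06 ± 0.07 (SE). Of the chaperones, hsp16.9A (LOC543277), a small heat shock protein, was at -0.05 ± 0.15 (SE) and FKBP70 (LOC543314), a prolyl isomerase, at 0.00 ± 0.57 (SE). Signal for hsp16.9A was below the first quartile of all values, with means of 3.63 for Pavon-TL and 3.68 for Null Control. In the leaf list 20 were positive and 13 negative, with a median of 0.03, and in the grain list 14 of each, with a median of -0.00. Neither list had a call. In the leaf list the Rubisco large subunit rbcl differed by 0.04 ± 0.20 (SE).

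**Figure D5:**
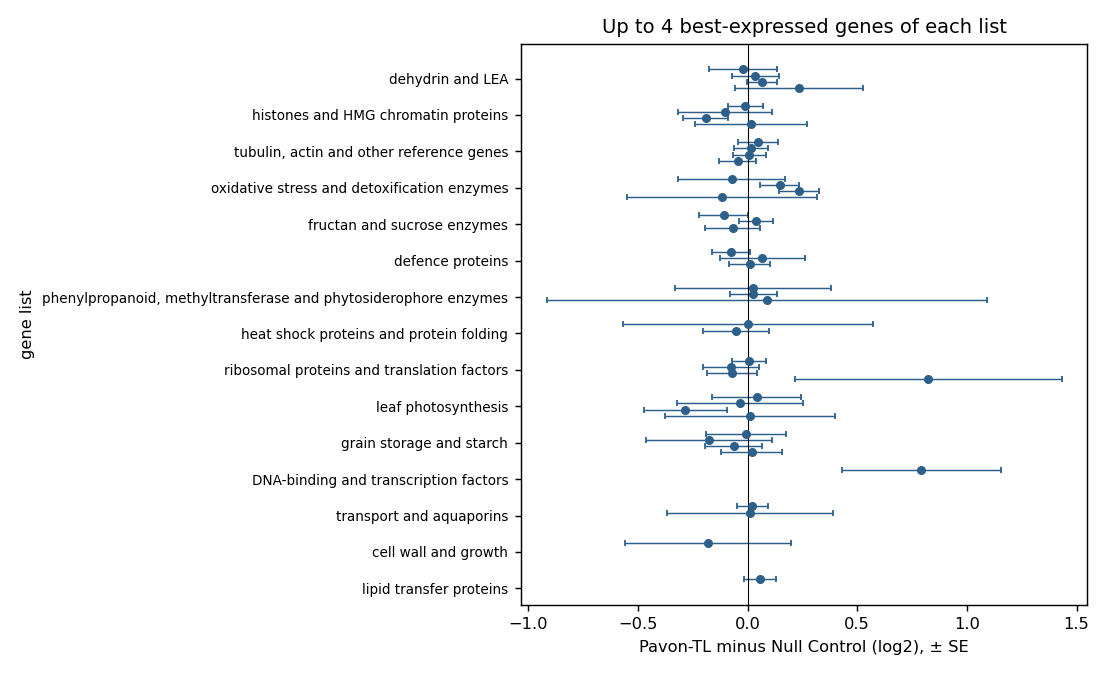
Pavon-TL minus Null Control (x axis, log2, ± SE of the model without the block) for up to 4 genes with the highest mean level in each of 15 lists (y axis), 1 probe set per gene. No probe set shown passed the test; wcH2B-8 passed through another of its probe sets. Most lie within 0.30 of 0, and the 2 above 0.50 are RPS29 at 0.82 and WZF1 at 0.79.

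The named genes with the smallest p that did not pass came from DNA-binding proteins and hormone synthesis as well as from the lists above. WZF1 (LOC543182), a zinc-finger DNA-binding protein, stood at 12.04 ± 0.51 (SD, n = 4) for Pavon-TL and 11.25 ± 0.68 (SD, n = 4) in Null Control, a difference of 0.79 ± 0.36 (SE, limma adjusted p = 1.00, and 0.104 with the block). Each of the 3 homoeologous genes for GA20ox1, an enzyme of gibberellin synthesis, had a negative difference: -0.29 ± 0.15 for GA20ox1d (LOC543325), -0.32 ± 0.17 for GA20OX1-A (LOC543327) and -0.27 ± 0.15 for GA20ox1b (LOC543326), each ± SE. Under water stress they were -0.46, -0.57 and -0.56, and under well water -0.12, -0.06 and 0.02. None passed in any of these (limma adjusted p = 1.00 in the average), and related copies can share probes. The thylakoid protein PsbP (LOC543290) differed by -0.28 ± 0.19 (SE), AGA.1 (LOC543278) by 0.15 ± 0.09 (SE) and raftin1a (LOC543442) by -0.14 ± 0.10 (SE). Signal for raftin1a was below the first quartile of all values, with means of 3.52 for Pavon-TL and 3.66 for Null Control.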

How the data were processed

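Root RNA of 12 samples in 6 groups was measured on Affymetrix wheat arrays. The authors deposited log2 values made with RMA, per the submitters' processing notes; its version is not given in the sources used here. The 111 control probe sets whose names start with AFFX were left out, leaving 61179. No detection calls were used and no filter was applied. The number of arrays limits the precision. Genes came from the 2007 platform annotation (1 symbol for 1273 probe sets of 771 genes, several for 0, none for 59906) and names from the RefSeq gene table of IWGSC CS RefSeq v2.1, where 770 matched. A further name than a LOC number was found for 102 genes.

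A linear model of the 6 group means was fitted to all 12 arrays in R 4.3.3 with limma 3.58.1, with contrasts of Pavon-TL with Null Control averaged over water, within each condition, and their difference. Tests are two-sided, with Benjamini-Hochberg adjustment over 61179 probe sets and calls below 0.05. The scripts were tested on simulated data. Replicate numbers pair the samples by correlation: deviations from group means correlated at 0.606 to 0.795 in 15 of 15 pairs of groups, although the labels do not say so. Blocked values stand beside results whose call they change or whose count they move over 1.5-fold. Alternatives were the block, the 8 arrays alone, a filter on dim probe sets, re-centring, quantile normalization again, a trend in the prior variance, and leaving out each array.

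Text names every annotated call, up to 15 annotated calls made only with the block, the 8 largest non-overlapping differences in each direction without a gene, the 10 named genes with the smallest p, up to 4 genes per list, and 3 probe sets per direction for each water condition and, by p, for the interaction; the remaining list members are given as counts. The members and lists were chosen with earlier results of these data known.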

Additional observations from a re-analysis of the deposited data

Results flagged for a closer look

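Among 29 named probe sets, the 4 arrays of each genotype were examined for a single array far from the other 3 (Dixon's test at 95%). Chance alone would flag about 1 in 20 groups, and 4 of 58 were found. In LOC780661 (Ta.6293.1.A1_at) the second Pavon-TL well-watered array stood at 5.29, against 4.43 to 4.54 in the other Pavon-TL arrays. The second Null Control well-watered array stood at 12.45 for Ta.18949.1.S1_at, against 11.41 to 11.49, and at 11.16 for Ta.994.1.S1_at, against 9.69 to 9.91. In TaAffx.36764.2.A1_at the first Null Control stressed array stood at 5.10, against 5.32 to 5.35. The genotype differences of the first 3 of these probe sets are more than 5 on the log2 scale in every matched pair.

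TaAffx.36764.2.A1_at also differed in opposite directions by water. Pavon-TL was below Null Control in both well-watered pairs, with differences of -0.39 and -0.15, and above it in both stressed pairs, at 0.74 and 0.42. The change between water conditions was 0.85 ± 0.17 (SE) and did not pass (limma adjusted p = 1.00, and 0.996 with the block).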

How the results depend on the processing

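Without the block the average called 93 probe sets, and the 5 alternatives that changed the arrays used, the filter, the scaling or the prior called 76 to 94; 0 interactions were called under any alternative. With the replicate block the counts were 352 in the average, 107 under well water and 137 under water stress, and with the 8 arrays alone and the block 374, 100 and 188. Leaving out 1 array gave 70 to 90 in the average, 34 to 54 under well water and 36 to 53 under water stress without the block. With the block it gave 163 to 612 in the average (168, 195, 198, 200, 211 and 349 between these), 72 to 116 under well water (101 without either Null Control stressed array) and 86 to 424 under water stress (124 without either Pavon-TL well-watered array, 134 without either Null Control one, 197 without the first Null Control stressed array). The lowest of the unblocked water counts came without the second Null Control well-watered array (34; 35 without the first) and without the second Null Control stressed array (36; 39 with Pavon-TL stressed replicate 2 absent). In the blocked fits, 612 and 424 were obtained when stressed Pavon-TL replicate 2 was absent. Fewer samples also leave fewer degrees of freedom; the cause was not tested otherwise. Where an arm keeps 1 array, it is assumed to vary like the other groups. Of 31 called named results, 27 kept their call and direction under each of the 23 alternatives in which they were tested (the filter on dim probe sets removed 7 of the 31, all gains, which it leaves untested); the others were wcH2B-8, Ta.28667.1.S1_at, TaAffx.85427.2.S1_at and, under water stress, TaAffx.83910.1.S1_at (adjusted p up to 0.121). No called result changed sign, and the block otherwise changed no call of a named gene beyond those given. The sign changed under at least 1 alternative in 33 of 90 named results, all of them uncalled. Without dim probe sets 78 of 30660 were called, all among the 93. Signals near the floor limit the size of a loss or gain.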

Other observations

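The RefSeq table placed 1254 annotated probe sets on a chromosome of the reference cultivar Chinese Spring, which may not be the copy the probes detect. Of these, 201 belong to chromosomes 7A, 7B and 7D, looked at because the translocation is known to involve 7D. In them the 4 Pavon-TL arrays lay wholly above the Null Control arrays in 9 probe sets (4.48%) and wholly below in 4 (1.99%), against 22 (1.75%) and 10 (0.797%) of all that were placed, these included. Most of them were on 7B, with 5 above (7.46%) and 3 below (4.48%) of 67. The 3 probe sets of LOC542989 are among those above. Chromosome 7D itself had 84 probe sets of 45 genes, with a median difference of -0.03, 1 wholly above and 1 wholly below (1.19% each). That last one is wcH2B-8. LOC780661 and LOC542989 are placed on 7B and LOC543418 on 6D. These counts are descriptions, and probe sets of one gene are not independent.

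The array also carries 64 reporter probe sets for sequences foreign to wheat. None was called, and their differences ran from -0.20 to 0.38. The 111 control probe sets had differences of -0.17 to 0.33, and the arrays of the genotypes overlapped in all of them.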
